A study of Mus musculus with 8 samples.

Results

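The genes described here make sterols, fatty acids and the acetyl-CoA from which both are built. They were the 39 rows of the deposited count table whose symbol was in a fixed list of that name, out of 45706 rows once spike-in sequences were left out, and each of the 39 symbols had 1 row. They were grouped by role into 7 mevalonate-pathway genes, 10 genes that turn squalene into cholesterol, 5 genes of regulation, uptake and transport, 7 genes of acetyl-CoA supply, 3 genes of fatty acid synthesis and 7 of elongation and desaturation. All 39 passed the filter on low counts. RNA-seq had been run on wild-type C57BL/6 muscle stem cells, the progenitors that repair skeletal muscle. They were sorted from hindlimb muscle of females aged 8 to 12 weeks as CD34+ and alpha7-integrin+ cells lacking CD45, Sca1, CD31 and CD11b. The fresh group held 5 libraries of cells taken straight after sorting, replicates 1 to 3 in sequencing run 1 and replicates 4 and 5 in run 2. The cultured group held 3 libraries, all in run 2, of sorted cells kept for 48 h on a 12 kPa hydrogel, and the growth medium named in the labels held fetal bovine serum. The sources used here do not say how many mice or cultures stood behind a library, so the p-values measure the spread between libraries, which may be technical.

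Cells build cholesterol by condensing acetyl-CoA units to mevalonate, joining the resulting isoprenoids into squalene, and closing and trimming the sterol rings. Fatty acids start from the same acetyl-CoA, which acetyl-CoA carboxylase turns into malonyl-CoA for fatty acid synthase, and the products are then elongated and desaturated. The transcription factors SREBP-1 and SREBP-2 (genes Srebf1 and Srebf2) switch on most of these genes when membrane sterol is low, and INSIG proteins hold them back in the endoplasmic reticulum when sterol is high. Outside mitochondria, acetyl-CoA comes from citrate through ATP citrate lyase and from acetate through ACSS2, and the same pool supplies the acetyl groups of histones.

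Promoter sequences were read because SREBPs are known to act at sterol regulatory elements together with NF-Y, which binds CCAAT boxes. RefSeq windows of build GRCm38.p6, the 250 bases before each annotated start, were matched by symbol for 30 of the 39 genes; Fdps, Fdft1, Sqle, Stard4, Crat, Acat1, Scd1, Scd2 and Fads1 were not matched. Both strands were searched for TCACNCCAC, the core of the sterol regulatory element, for the looser TCACNCNAC, which includes it, for CCAAT and for TCANNTGA, an E-box form that SREBPs can also bind. TCACNCCAC was found in 1 of the 30 genes, Hmgcs1, against 1.22% of all 27025 genes with a window (1.05% of 32851 windows, since some genes have several). TCACNCNAC was found in 2 of 30, Hmgcs1 and Nsdhl, against 2.65% of all genes (2.26% of windows). CCAAT was found in 23 of 30 genes, against 37.5% of all genes (33.8% of windows). Within the sterol chain, the mevalonate and squalene steps together, it stood in 13 of 14 genes, and in 10 of the 16 other genes with a window. TCANNTGA was in none of the 30, against 8.11% of all genes (7.09% of windows). These are counts of letters in short windows, with no test.

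The sequences below show the Hmgcs1 element core, the looser Nsdhl match and CCAAT boxes of genes from 4 roles, to set beside the levels that follow. Each is read 5′ to 3′ along the gene's own strand, with the match in capitals, and ATTGG is CCAAT on the other strand. All lie upstream of the gene's span in the GENCODE M21 annotation of mm10, in no exon or intron of it. The Hmgcs1 core ends 129 bases before the RefSeq start (chr13:119690198-119690238, + strand) and the Hmgcs1 CCAAT box shown ends 172 before it (chr13:119690159-119690195, + strand). The Nsdhl match to TCACNCNAC ends 197 bases before the RefSeq start (chrX:72918300-72918340, + strand). The boxes shown for the other genes end 58 bases upstream in Lss (chr10:76531527-76531563, + strand), 212 in Insig1 (chr5:28071180-28071216, + strand) and 86 in Fasn (chr11:120824617-120824653, - strand). Further CCAAT matches, not shown, end 233 and 41 bases upstream in Hmgcs1 and 58 and 55 in Fasn.
Hmgcs1 element core: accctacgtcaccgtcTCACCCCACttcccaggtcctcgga
Nsdhl looser match: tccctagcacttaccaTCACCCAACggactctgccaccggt
Hmgcs1 CCAAT box: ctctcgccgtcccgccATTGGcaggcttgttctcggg
Lss CCAAT box: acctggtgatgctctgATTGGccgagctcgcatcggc
Insig1 CCAAT box: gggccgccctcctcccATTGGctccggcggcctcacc
Fasn CCAAT box: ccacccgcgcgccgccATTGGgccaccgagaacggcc

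Library totals ran from 13919440 to 20068154 counts, and levels below are CPM, counts divided by the TMM-scaled library size in units of 1000000 counts, in replicate order. The 7 muscle stem cell markers summed to 2155 to 3166 CPM in fresh and 592 to 649 CPM in cultured libraries, and 5 of 7 passed the test as lower. Cd34 and Itga7, the gene of alpha7 integrin, did not pass. Cd34 had 239 ± 65.4 CPM in fresh and 171 ± 34.4 CPM in cultured libraries (mean ± SD). Itga7 had 71.0 ± 19.2 and 83.5 ± 30.1 CPM in the same order. Summed markers of other cells did not overlap and were lower in culture, except for the adipocyte and myofibre sums, which overlapped. The 7 Schwann cell genes summed to 451 to 2102 CPM in fresh and 17.4 to 35.9 CPM in cultured libraries, with Sox10 at 0 in all 3 cultured ones, and 5 of 7 passed the test as lower. The 7 pericyte genes summed to 784 to 2999 and 33.7 to 51.6 CPM (6 of 7 lower, Abcc9 and Kcnj8 at 0 in culture). The 7 adipocyte genes, of which only Fabp4 passed the filter, summed to 3.76 to 32.4 and 0 to 4.03 CPM (Fabp4 lower; Adipoq, Plin1, Cfd, Retn and Lep at 0 in culture). Fibro-adipogenic sums were 253 to 653 and 4.64 to 9.33 CPM (3 of 5 lower, Ly6a at 0 in culture), endothelial sums 89.8 to 132 and 0.720 to 41.2 CPM (2 of 6 lower, Kdr at 0 in culture; Pecam1, the gene of CD31, was at 35.1 and 38.1 CPM in cultured replicates 1 and 3, 0.103 CPM in cultured replicate 2 and 0.195 to 4.50 CPM in fresh libraries, and did not pass, adjusted p = 0.0677), blood sums 16.7 to 65.6 and 0.204 to 2.48 CPM (2 of 4 tested lower; Cd74, Lyz2 and Csf1r at 0 in culture) and myofibre sums 23.6 to 28.5 and 11.3 to 77.6 CPM (1 of 6 lower). Signs of RNA quality also moved with run and culture. Mitochondrial rRNA took 5.25 to 10.5% of counts in run-1 fresh libraries, 23.2 and 26.5% in run-2 fresh libraries and 11.1 to 18.4% in cultured ones. Genes with a count numbered 32710 to 34689, 20480 and 20898, and 15415 to 17852 in the same order. The part of these cells and signs in the results below was not tested. In bulk RNA, fewer cells of a type and less RNA per cell cannot be told apart. Cultured replicate 1 stood apart. Of tested genes with at least 5 CPM in the rest of the cultured group, 1.72% had no count there. The same share was 0.170% for cultured replicate 2 and 0.208% for replicate 3. It was also counted as the lowest cultured library for 54.4% of all tested genes, against 22.9% and 22.7% for replicates 2 and 3. Ties, such as genes at 0 in all of culture, went to the lower-numbered library, which raises the first share. Cultured replicate 1 had no count of 6 of the 39 genes (Pmvk, Nsdhl, Stard4, Acss1, Slc25a1 and Acacb).

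After culture 7 of the 17 sterol synthesis genes and both stearoyl-CoA desaturases fell, and so did Insig1, Srebf2 and the acetate-activating gene Acss2. The lipoprotein receptor gene Lrp8 rose, and Acly, Acaca and Fasn, which carry carbon from citrate to palmitate, passed the test in neither direction. In all, 12 of the 39 genes were lower, 1 was higher and 26 missed the threshold of 0.05 for the Benjamini-Hochberg adjusted p of edgeR's quasi-likelihood test, which included the sequencing run. Among all 19054 genes tested, 18.0% were called lower and 8.87% higher. All cultured libraries lay below all fresh ones for 19 of the 39, as for 26.1% of tested genes, and above them for 2, as for 13.7%. The median log2 fold change was -1.29 over the 39 genes and -0.21 over all genes tested. Among genes with a mean of at least 10 CPM, 12 of 31 here and 1475 of 8910 in all (16.6%) were lower, and 1 and 1469 (16.5%) higher. Since every cultured library was in run 2, the fold change is against fresh replicates 4 and 5. With run 2 alone, 7 were lower (10.9% of all genes) and 1 higher (6.24%), and Hmgcs1, Fdps, Sqle, Srebf2 and Acss2 lost their calls. With run-1 fresh libraries as the only fresh ones, 9 were lower (25.4%) and 2 higher (13.3%), but run and culture cannot be told apart there. Dropping fresh replicate 4 left 6 lower, and dropping fresh replicate 5 left 7. Dropping cultured replicate 1 gave 13 lower and 2 higher, Lrp8 and Acly. The number higher was also 2 when fresh replicate 1 (with Me1) or cultured replicate 2 (with Elovl1) was dropped. Of the 13 genes called, Cyp51 and Lrp8 kept their call under all 18 alternatives.

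**Figure D1:**
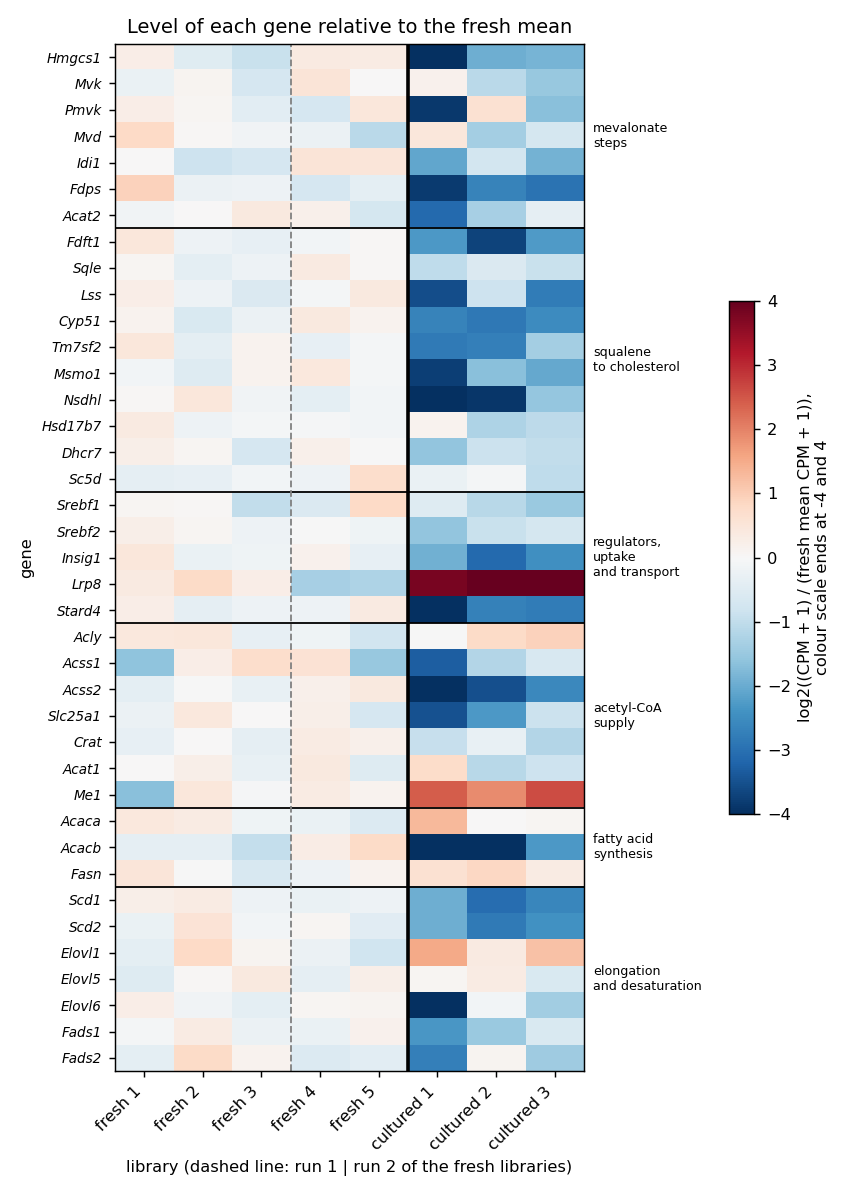
Level of each of the 39 genes (rows, by role) in each library (columns), as log2 of CPM + 1 over the fresh mean + 1, blue lower and red higher. Most rows of the sterol chain are blue in the 3 cultured columns, and cultured replicate 1 is the lowest of the 3 for 11 of those 17 genes, while Lrp8, Me1 and Elovl1 are red.

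In the mevalonate pathway 3 of 7 genes fell and none rose, with a median log2 fold change of -1.18. Among all genes tested, 18.0% fell and 8.87% rose. Hmgcs1 (ENSMUSG00000093930, chromosome 13, 119690379 to 119708260), the HMG-CoA synthase of the cytosol, stood at 106, 61.4, 46.6, 111 and 109 CPM in fresh replicates 1 to 5 and 2.48, 21.8 and 23.4 CPM in cultured replicates 1 to 3. Every cultured library was below every fresh one, and the log2 fold change was -2.79 ± 0.76 (± SE; adjusted p = 0.0263). Idi1, which isomerises the isoprenoid unit, had 66.3, 37.1, 40.6, 93.7 and 91.9 CPM in the 5 fresh libraries, against 15.0, 39.2 and 17.0 CPM after culture. Its groups overlapped, since cultured replicate 2 exceeded fresh replicate 2, and it fell against the run-2 fresh libraries (-1.97 ± 0.47; adjusted p = 0.0149). Fdps, farnesyl diphosphate synthase, had 38.8, 16.8, 17.3, 12.3 and 15.0 CPM in the 5 fresh libraries, against 0.474, 2.32 and 1.73 CPM after culture, with no overlap (-3.17 ± 0.77; adjusted p = 0.0158). Fresh replicate 1 held more than the other fresh libraries, and all 3 cultured libraries were near 0. The 3 calls were lost without fresh replicate 4 or without fresh replicate 5, at -2.71 and -2.78 for Hmgcs1, -1.90 and -1.96 for Idi1 and -3.24 and -2.99 for Fdps. Against run-1 fresh libraries, Hmgcs1 (-2.07) and Idi1 (-0.94) were not called, and Fdps was (-3.92). Hmgcs1 and Idi1 also lost their calls with no scaling (-2.30 and -1.53) and once GC and length trends were removed, where Idi1 was at -1.09. Both were called, at -2.94 and -2.12, with those trends removed but the TMM level kept.

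The other 4 mevalonate genes did not pass the test. Mvk, mevalonate kinase, had 5.89 ± 2.09 CPM before and 3.48 ± 2.86 CPM after culture (mean ± SD, n = 5 and 3 here and below) and a log2 fold change of -1.10 ± 0.91 (adjusted p = 0.41; -1.95 without cultured replicate 1). Pmvk, the next kinase, had no count in cultured replicate 1 but 21.1 CPM in cultured replicate 2, more than in any fresh library (-0.72 ± 1.56; adjusted p = 0.787). It moved to -2.86 without cultured replicate 2 and to 0.05 without fresh replicate 5. Mvd, the decarboxylase that makes the isoprenoid unit, had a positive fitted value (0.40 ± 1.10; adjusted p = 0.843) though its mean was lower in culture, at 3.32 ± 2.02 CPM before and 2.43 ± 2.24 CPM after culture. The fitted value was negative with no run term (-0.45), against run-1 fresh libraries (-0.79), without fresh replicate 5 (-0.14) and without cultured replicate 1 (-0.59). Acat2, the cytosolic thiolase of the first condensation, had 11.1, 12.5, 16.6, 14.4 and 7.10 CPM in the 5 fresh libraries, against 0.527, 4.32 and 9.33 CPM after culture (-1.18 ± 0.99; adjusted p = 0.416; -0.52 without fresh replicate 4, -0.60 without cultured replicate 1 and -2.10 without cultured replicate 3). Acat2 has a close copy, Acat3, that can share its reads.

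All 10 genes from squalene to cholesterol had negative values, with a median log2 fold change of -2.35, and 4 of them fell. Among all 19054 genes tested, 10256 had negative values and 18.0% fell. Once GC and length trends were removed, Sqle (0.10), Hsd17b7 (0.70) and Sc5d (0.39) had positive values and were not called. With those trends removed but the TMM level kept, their values were -0.99, -0.53 and -0.73, and Sqle was called lower. All cultured libraries lay below all fresh ones in 8 of 10, as for 26.1% of all genes tested. Cyp51 (ENSMUSG00000001467, chromosome 5, 4081145 to 4104746), the lanosterol demethylase, had 148, 87.7, 115, 175 and 149 CPM in the 5 fresh libraries, against 20.3, 17.5 and 22.8 CPM after culture. The cultured libraries were close to each other, all below the lowest fresh library, and the log2 fold change was -3.00 ± 0.29 (adjusted p = 0.000346). Fdft1, squalene synthase, which commits carbon to sterols, had 112, 70.5, 64.2, 75.1 and 83.5 CPM in the 5 fresh libraries, against 15.8, 5.35 and 16.1 CPM after culture (-2.68 ± 0.49; adjusted p = 0.00525; -1.35 and no call once GC and length trends were removed). Fdft1 was called, at -2.52, with those trends removed but the TMM level kept. Msmo1, a methylsterol oxidase, had 88.0, 66.4, 105, 128 and 91.1 CPM in the 5 fresh libraries, against 6.06, 29.7 and 22.4 CPM after culture, and cultured replicate 1 was lowest (-2.50 ± 0.57; adjusted p = 0.0121; -2.17 and no call without fresh replicate 4). Sqle, the squalene epoxidase and a rate-limiting step, had the smallest fold change of the 4. It stood at 111, 80.1, 91.3, 134 and 108 CPM in the 5 fresh libraries, against 51.5, 70.1 and 56.2 CPM after culture, with no overlap (-1.03 ± 0.27; adjusted p = 0.0215). Its call was lost with run 2 alone (-1.04), with no scaling (-0.60), with no filter (-0.98), without fresh replicate 4 (-0.81), fresh replicate 5 (-1.16) or cultured replicate 3 (-0.97), and its adjusted p spanned 0.00172 to 0.855 over the 18 alternatives.

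The other 6 genes of this segment did not pass. Lss, lanosterol synthase, had 58.3, 42.3, 32.1, 46.3 and 64.3 CPM in the 5 fresh libraries, against 3.21, 26.9 and 6.12 CPM after culture, so that cultured replicate 2 alone came near the fresh libraries (-2.20 ± 0.78; adjusted p = 0.0662; -3.54 and called without that library). Nsdhl, a sterol dehydrogenase, had 34.1, 46.0, 29.7, 24.8 and 30.4 CPM in the 5 fresh libraries, against 0, 1.29 and 10.7 CPM after culture (-2.78 ± 1.40; adjusted p = 0.177; -5.35 and called without cultured replicate 3). Tm7sf2, a sterol reductase, followed the same order of cultured libraries at a lower level, 7.62 ± 2.14 CPM before and 0.972 ± 1.23 CPM after culture (-2.75 ± 1.12; adjusted p = 0.1; -4.61 and called without cultured replicate 3). Dhcr7, the reductase of the last step, had 12.4 ± 2.97 CPM before and 5.22 ± 1.55 CPM after culture with no overlap (-1.36 ± 0.64; adjusted p = 0.148). DESeq2 in place of edgeR called Dhcr7 lower (-1.42). Hsd17b7, a sterol ketone reductase, overlapped between groups because cultured replicate 1 was at 64.6 CPM and cultured replicates 2 and 3 at 24.0 and 27.7 CPM (-0.51 ± 0.45; adjusted p = 0.438; -1.04 and called without cultured replicate 1). Sc5d, a sterol desaturase, also overlapped (-0.74 ± 0.50; adjusted p = 0.306), and without fresh replicate 5, its highest library, the value was -0.19.

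Summed over the 17 genes of the sterol chain, levels were 919, 632, 667, 931 and 885 CPM in fresh replicates 1 to 5 and 214, 295 and 239 CPM after culture, and the groups did not overlap. Of the 17 genes, 7 fell and none rose, where 18.0% of all genes tested fell and 8.87% rose. Values were negative for 16 of the 17, and for 10256 of all 19054 genes tested. All cultured libraries were below all fresh ones for 10 of the 17, as for 26.1% of all genes tested. Cultured replicate 1 was the lowest cultured library for 11 of the 17. The plot of summed levels by role shows the sterol chain, the regulators, uptake and transport genes and the elongation and desaturation genes separated by group. The acetyl-CoA and fatty acid synthesis genes were not separated. Scd1 and Scd2 made up most of the fresh elongation and desaturation sums, and 4 of the 7 genes of that role overlapped between groups when taken singly.

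**Figure D2:**
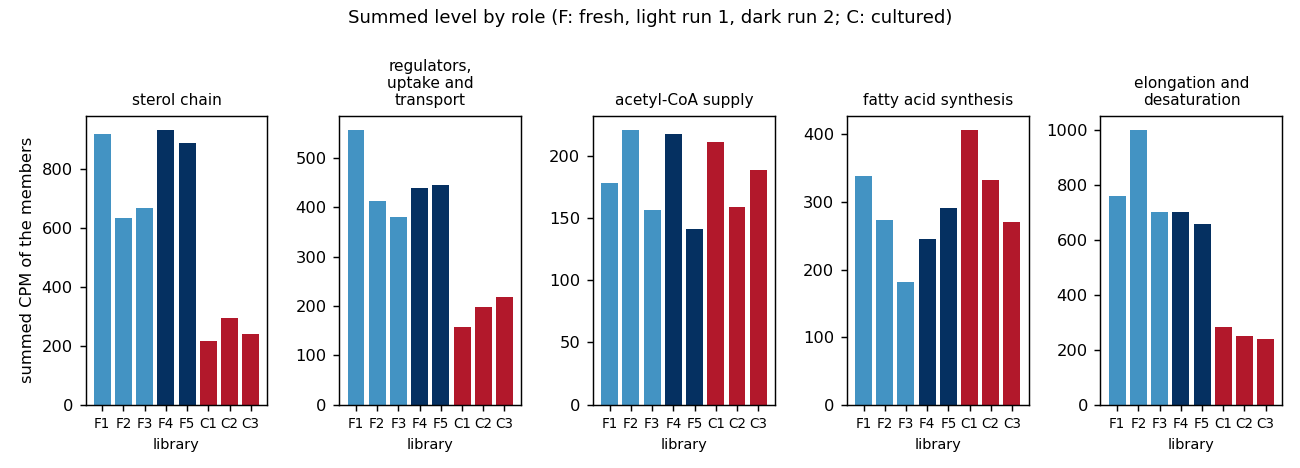
Summed CPM of the genes of each role (1 panel each, bars from 0) in fresh libraries F1 to F5 and cultured libraries C1 to C3. The sterol chain lies between 214 and 295 CPM in culture, below every fresh library, while the bars for acetyl-CoA supply and fatty acid synthesis overlap between groups.

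Regulators, uptake and transport genes went both ways, 2 of 5 lower and 1 higher, where 18.0% of all genes tested fell and 8.87% rose. Srebf2, which encodes the factor that drives sterol genes, had 182, 162, 134, 152 and 136 CPM in the 5 fresh libraries, against 51.2, 82.3 and 93.0 CPM after culture. The groups did not overlap and the value was -0.93 ± 0.30 (adjusted p = 0.0461), a call that ended when any of fresh replicates 1 to 5 or cultured replicates 1 or 2 was left out (-0.65 without cultured replicate 1 to -0.99 without fresh replicate 5; adjusted p 0.0134 to 0.369 over the 18 alternatives). Removing GC and length trends turned the value to 0.68, or -0.38 with the TMM level kept, neither called. Srebf1, which encodes the SREBP-1 forms more tied to fatty acid genes, had 41.0, 39.5, 19.1, 25.6 and 66.8 CPM in the 5 fresh libraries, against 26.8, 17.3 and 13.0 CPM after culture, with overlap (-1.28 ± 0.55; adjusted p = 0.118; -0.42 without fresh replicate 5). Insig1 (chromosome 5, 28071363 to 28078662), itself an SREBP target and the retention factor of the pathway, had 230.4, 142, 151, 189 and 134 CPM in the 5 fresh libraries, against 44.0, 18.7 and 30.4 CPM after culture. Each cultured library had less than the lowest fresh one, and the log2 fold change was -2.38 ± 0.39 (adjusted p = 0.00361; -1.17 and no call once GC and length trends were removed). Insig1 was called, at -2.38, with those trends removed but the TMM level kept. Stard4, a carrier of cholesterol between membranes, had 101, 64.6, 73.2, 71.8 and 107 CPM in the 5 fresh libraries, against 0, 11.9 and 11.1 CPM after culture. All cultured libraries lay below the fresh range and cultured replicate 1 held none (-3.54 ± 1.26; adjusted p = 0.0674). Stard4 was called without that library (-2.90), with no run term (-3.44), with no filter (-3.47) and with DESeq2 in place of edgeR (-3.62).

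Lrp8 (ENSMUSG00000028613, chromosome 4, 107802261 to 107876840), a lipoprotein receptor gene whose product binds apolipoprotein E and reelin, was the 1 gene that rose. It had 2.39, 3.47, 2.16, 0.0632 and 0.130 CPM in the 5 fresh libraries, against 35.9, 67.1 and 70.0 CPM after culture. Cultured libraries were far above all fresh ones (9.12 ± 0.79; adjusted p = 0.000214). The run-2 fresh libraries held 3 counts of it, so the ratio to them was 601 with a 95% counting interval of 206 to 2918 (exact, counting error only). Against run-1 fresh libraries the log2 fold change was 4.50, and Lrp8 was the 1 gene of the 39 that differed between the fresh runs (lower in run 2, -4.69 ± 0.69; adjusted p = 0.0477; 0.0945% of all tested genes were lower, 0.189% differed either way). This run difference was no longer called when any 1 library other than cultured replicate 1 was dropped (log2 -5.21 to -4.27 over those libraries). The size of the rise therefore differed with the fresh libraries it was set against, and its direction did not change under any of the 18 alternatives.

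**Figure D3:**
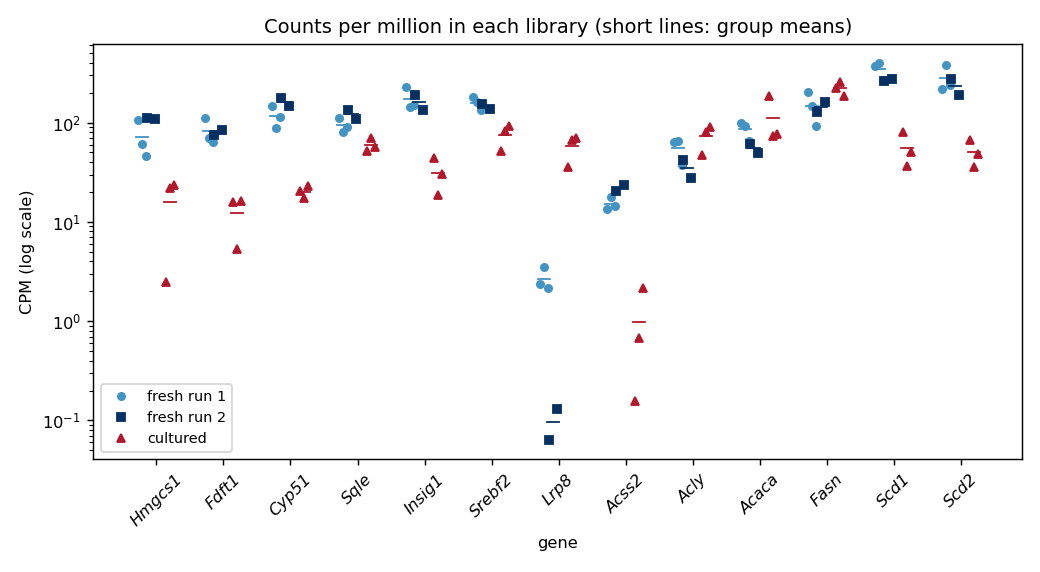
CPM (log axis) of 13 genes in each library, with run-1 fresh (circles), run-2 fresh (squares) and cultured (triangles) libraries apart and a short line at each mean. Lrp8 lies at 35.9 to 70.0 CPM in culture and under 4 CPM in fresh cells, whereas Acly, Acaca and Fasn overlap between groups.

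Of the genes for the 2 cytosolic routes to acetyl-CoA, that of the acetate route fell and that of the citrate route did not pass the test. Acss2 (ENSMUSG00000027605, chromosome 2, 155517948 to 155585724), which activates acetate in the cytosol and nucleus, had 13.4, 17.6, 14.5, 20.5 and 23.5 CPM in the 5 fresh libraries, against 0.158, 0.669 and 2.14 CPM after culture. All cultured libraries lay below the fresh ones, and its log2 fold change was -4.47 ± 0.95 (adjusted p = 0.00928), or -5.67 without cultured replicate 3. With run 2 alone the value was -4.48 and the call was lost. Acly, ATP citrate lyase, had 63.8, 64.8, 37.3, 42.2 and 27.6 CPM in the 5 fresh libraries, against 47.1, 80.2 and 90.1 CPM after culture. The groups overlapped and it did not pass (1.05 ± 0.41; adjusted p = 0.0917), and was called higher without cultured replicate 1 (1.35), with no scaling (1.51) and after removal of GC and length trends (2.39, or 1.35 with the TMM level kept). Its adjusted p spanned 0.00322 to 0.543 over the 18 alternatives.

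Slc25a1, the mitochondrial citrate carrier that supplies ATP citrate lyase, had 8.49, 14.0, 10.4, 12.3 and 5.99 CPM in the 5 fresh libraries, against 0, 1.29 and 5.15 CPM after culture. Its cultured libraries lay below the fresh ones, but the value of -2.08 ± 1.44 did not pass (adjusted p = 0.322; -3.76 without cultured replicate 3). Acss1, the mitochondrial acetate enzyme, overlapped between groups, with 2.22, 11.0, 15.1, 13.7 and 2.48 CPM in the 5 fresh libraries, against 0, 3.40 and 5.35 CPM after culture (-1.47 ± 1.59; adjusted p = 0.54; 0.30 without fresh replicate 4). Crat, carnitine acetyltransferase, which buffers mitochondrial acetyl-CoA, had 17.5, 22.5, 17.0, 27.9 and 25.5 CPM in the 5 fresh libraries, against 11.1, 18.0 and 9.22 CPM after culture (-1.07 ± 0.48; adjusted p = 0.131). DESeq2 in place of edgeR called Crat lower (-1.13). Acat1, the mitochondrial thiolase, had 71.1 ± 18.0 CPM before and 63.9 ± 48.3 CPM after culture (-0.17 ± 0.56; adjusted p = 0.877; -0.93 without cultured replicate 1 and 0.39 without fresh replicate 4). Me1, the cytosolic malic enzyme that yields NADPH for lipid synthesis, had 0.969, 7.55, 5.10, 6.95 and 5.93 CPM in the 5 fresh libraries, against 32.9, 22.5 and 37.1 CPM after culture. Every cultured library exceeded every fresh one, though the value of 2.26 ± 0.84 did not pass (adjusted p = 0.0781). It was called higher without fresh replicate 1 (2.25), with no run term (2.54) and against run-1 fresh libraries (2.82), and its adjusted p spanned 0.00793 to 0.282 over the 18 alternatives. In the whole role 1 of 7 fell and none rose, where 18.0% of all genes tested fell and 8.87% rose.

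Fatty acid synthesis genes did not pass the test in either direction. Fasn (ENSMUSG00000025153, chromosome 11, 120805846 to 120824547), fatty acid synthase, had 203, 146, 93.4, 128 and 161 CPM in the 5 fresh libraries, against 223, 259 and 184 CPM after culture. The cultured mean was higher but cultured replicate 3 lay below fresh replicate 1 (0.62 ± 0.34; adjusted p = 0.214). Acaca, the cytosolic acetyl-CoA carboxylase that feeds it, had 99.5, 92.6, 64.5, 61.4 and 50.0 CPM in the 5 fresh libraries, against 183, 73.7 and 77.6 CPM after culture, with cultured replicate 1 the highest (1.00 ± 0.44; adjusted p = 0.126). Both were called higher once GC and length trends were removed, at 1.46 and 1.57 with the TMM level kept, and Acaca also with no scaling (1.36). Acaca was at 0.50 without cultured replicate 1. The adjusted p spanned 0.00225 to 0.531 for Fasn and 0.0087 to 0.578 for Acaca over the 18 alternatives. Acacb, the isoform at the mitochondrial surface whose product restrains fatty acid import, had 35.4, 35.1, 23.0, 56.2 and 79.2 CPM in the 5 fresh libraries, against 0, 0 and 8.56 CPM after culture. Only cultured replicate 3 held counts, the groups did not overlap, and the value of -4.56 ± 1.77 did not pass (adjusted p = 0.0877). Without cultured replicate 3 the cultured libraries had no count of it, at least 865-fold lower than run-2 fresh cells against a floor of 3 counts over both libraries, and it was called.

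Among elongases and desaturases, 2 of 7 fell and none rose, where 18.0% of all genes tested fell and 8.87% rose. Scd1 and Scd2, the stearoyl-CoA desaturases that make monounsaturated fatty acids, are neighbours on chromosome 19 (44293674 to 44306864 for Scd2, 44394455 to 44407879 for Scd1), and as close paralogs they can share reads. Scd1 had 370.4, 399.8, 271, 263 and 273 CPM in the 5 fresh libraries, against 80.9, 37.0 and 50.3 CPM after culture (-2.26 ± 0.34; adjusted p = 0.00233). Scd2 had 217, 378, 239.7, 276 and 190.5 CPM in the 5 fresh libraries, against 67.0, 35.5 and 48.1 CPM after culture (-2.22 ± 0.35; adjusted p = 0.00321). In both genes cultured replicate 2 was lowest and no cultured library reached the fresh range. Both calls ended once GC and length trends were removed (-0.86 and -0.67) and held with the TMM level kept (-2.06 and -1.85). Fads1, a front-end desaturase of polyunsaturated fatty acids, had 46.2, 61.0, 41.3, 40.1 and 55.4 CPM in the 5 fresh libraries, against 8.91, 16.8 and 31.4 CPM after culture, without overlap (-1.33 ± 0.51; adjusted p = 0.0848; -1.87 and called without cultured replicate 3). Fads2, its partner desaturase, overlapped (9.91 ± 4.61 CPM before and 4.82 ± 5.29 CPM after culture; -0.50 ± 1.04; adjusted p = 0.774; -1.84 without cultured replicate 2 and 0.08 without cultured replicate 1).

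The elongases differed from each other. Elovl1, which extends very long saturated chains, had 17.1, 40.1, 24.3, 19.1 and 12.6 CPM in the 5 fresh libraries, against 66.1, 29.2 and 52.1 CPM after culture. Its value of 1.63 ± 0.54 stopped short of the threshold (adjusted p = 0.0528), with cultured replicate 2 inside the fresh range, and it was called higher without that library (1.90). Elovl5, which extends polyunsaturated chains, overlapped between groups at 57.0 ± 15.0 CPM before and 56.6 ± 18.1 CPM after culture (0.02 ± 0.41; adjusted p = 1; -0.20 without cultured replicate 2 and -0.19 without fresh replicate 4). Elovl6, which takes palmitate to stearate, had 61.3, 45.8, 38.7, 53.8 and 54.3 CPM in the 5 fresh libraries, against 0.158, 47.3 and 18.8 CPM after culture, so that the cultured libraries spanned from almost none to the fresh range (-1.29 ± 1.26; adjusted p = 0.49; -2.45 without cultured replicate 2 and -0.65 without cultured replicate 1).

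**Figure D4:**
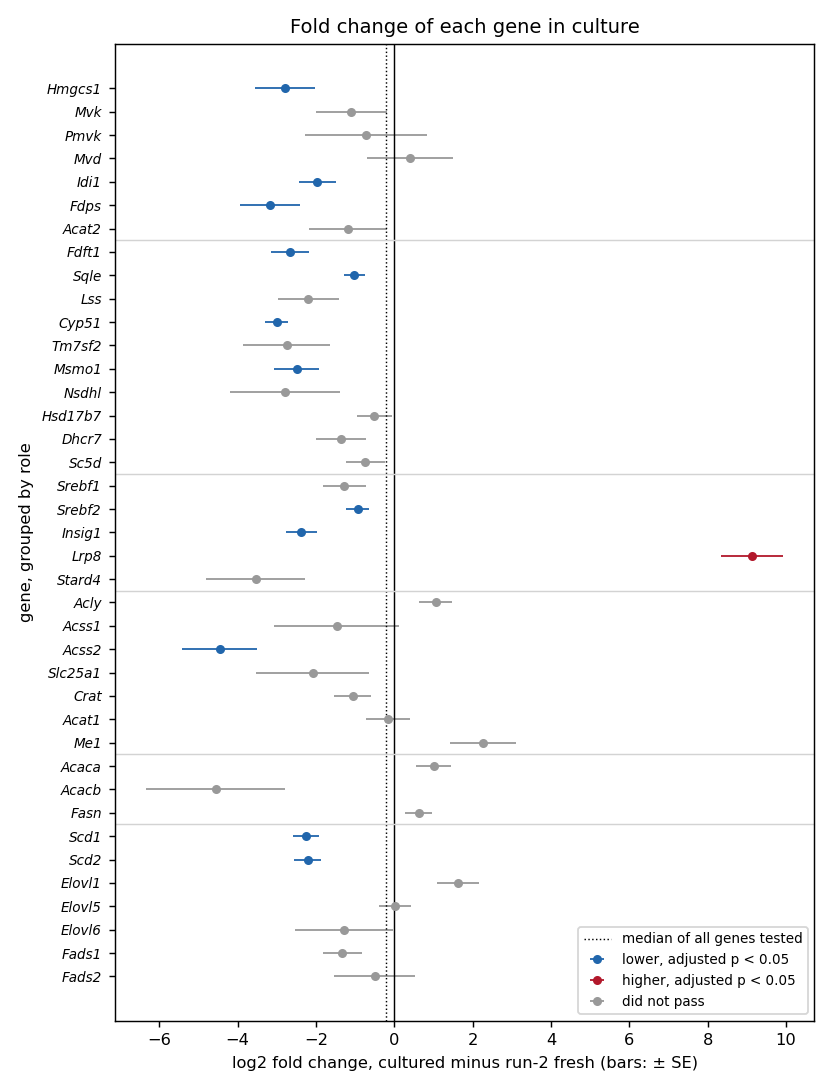
Log2 fold change of cultured against run-2 fresh libraries for each gene (points, bars ± SE), blue where it fell, red where it rose and grey where it did not pass; the dotted line is the median of all genes tested. The blue points lie in the sterol chain, Srebf2, Insig1, Acss2, Scd1 and Scd2, and Lrp8 is the 1 red point.

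Ratios between genes within a library do not depend on how libraries are scaled. The 4 ratios here were chosen after the values were seen and are descriptions without a test, on CPM per kb of the longest protein-coding transcript. The per-kb levels here and below were not corrected for GC and length trends, so they are not counts of transcripts. The log2 ratio of Fasn to Scd1 was -1.92, -2.51, -2.59, -2.10 and -1.82 before and 0.41, 1.75 and 0.81 after culture. On this scale Scd1 was ahead of Fasn in every fresh library and Fasn was ahead in every cultured one. For Fasn to Cyp51 the ratio was -0.90, -0.62, -1.65, -1.81 and -1.24 in fresh and 2.11, 2.53 and 1.66 in cultured libraries. For Acly to Acss2 it was 1.66, 1.28, 0.77, 0.44 and -0.36 in fresh and 7.62, 6.31 and 4.80 in cultured libraries, the first of the cultured values resting on 3 counts of Acss2. These 3 ratios separated the groups without overlap. The fourth, Srebf2 to Srebf1, did not, at 1.91, 1.79, 2.57, 2.33 and 0.78 in fresh and 0.69, 2.01 and 2.59 in cultured libraries. On the same per-kb scale, the 4 highest levels in fresh cells were those of Scd1 (65.3 ± 13.3 CPM per kb), Insig1 (62.7 ± 14.9), Scd2 (47.8 ± 13.4) and Msmo1 (46.9 ± 11.2), and neighbours in that order differed by less than the sum of their SDs. In culture the order began with Elovl1 (27.1 ± 10.3), Fasn (22.1 ± 3.72), Sqle (21.5 ± 3.51) and Elovl5 (20.3 ± 6.49), again with neighbours closer than the sum of their SDs, and Scd1, Insig1, Scd2 and Msmo1 were at ranks 9, 10, 13 and 11 of 39.

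Other genes of the same pathways, from lists beside the 39, gave the following. Of 24 further genes of sterol synthesis, control and handling, 7 fell and none rose, where 18.0% of all genes tested fell and 8.87% rose (median -0.78). Insig2, the second INSIG gene, fell from 118 ± 25.0 to 14.3 ± 13.0 CPM (-2.73 ± 0.62; adjusted p = 0.0126). Abca1, the cholesterol efflux pump, fell as well, at 46.7 ± 15.4 CPM before and 2.87 ± 3.98 CPM after culture (-3.74 ± 1.05; adjusted p = 0.0291) and so did Apoe, apolipoprotein E, at 123 ± 39.3 CPM before and 2.22 ± 0.190 CPM after culture (-6.11 ± 0.40; adjusted p = 6.56e-05). Calls in these genes were lost without fresh replicate 4 or 5 for Insig2 (-2.60 and -2.75; -3.75 and called without cultured replicate 2) and without fresh replicate 3, 4 or 5 for Abca1 (-3.74, -3.84 and -3.51; -6.05 and called without cultured replicate 2). Apoe kept its call under all 18 alternatives.

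Of 25 further tested genes of fatty acid synthesis, elongation and activation, 3 rose and 4 fell (all genes: 8.87% and 18.0%; median 0.63, the same with Thrsp at its bound). Thrsp, a nuclear regulator of lipogenic genes, had 17.0 ± 5.83 CPM in fresh cells and none in any cultured library, at least 299.7-fold lower than run-2 fresh cells taking 3 counts in all of culture as the floor (adjusted p = 0.00111). Mlxipl, which encodes the carbohydrate-responsive factor ChREBP, fell from 49.5 ± 15.9 to 0.340 ± 0.545 CPM (-6.91 ± 1.20; adjusted p = 0.00454) and Lpin1, a phosphatidate phosphatase, from 20.3 ± 6.32 to 0.412 ± 0.713 CPM (-5.76 ± 1.57; adjusted p = 0.0262). Hacd1, a dehydratase of the elongation cycle abundant in muscle, rose from 1.62 ± 0.749 to 24.5 ± 14.2 CPM (3.57 ± 0.93; adjusted p = 0.0215). Of 19 genes of acetyl-CoA supply and use, 2 rose and 5 fell, against the same shares of all genes (median -1.17). Dlat, the acetyltransferase subunit of pyruvate dehydrogenase, rose (36.7 ± 4.58 CPM before and 106 ± 34.8 CPM after culture; 1.50 ± 0.36; adjusted p = 0.0159). Acaa1a, a peroxisomal thiolase, fell (32.2 ± 8.17 CPM before and 2.48 ± 1.36 CPM after culture; -3.95 ± 0.62; adjusted p = 0.00303), as did Oxct1, which activates ketone bodies (79.7 ± 13.4 CPM before and 26.1 ± 1.58 CPM after culture; -1.55 ± 0.29; adjusted p = 0.00567), and Mpc2, a subunit of the mitochondrial pyruvate carrier (17.3 ± 7.30 CPM before and 7.27 ± 3.08 CPM after culture; -1.79 ± 0.55; adjusted p = 0.0422). Thrsp, Mlxipl and Acaa1a kept their calls under all 18 alternatives; without cultured replicate 3, Mlxipl was at -10.28 with 1 count left in culture. Lpin1 lost its call without any 1 fresh library (-6.13 to -5.08). Without cultured replicate 2 no count of Lpin1 was left in culture, at least 290.1-fold lower than run-2 fresh cells with 3 counts over both libraries as the floor, and it was called. Mpc2 lost its call without any 1 fresh library (-1.85 to -1.68) or cultured replicate 2 (-1.52). Without fresh replicate 4 or 5, Hacd1 (3.82 and 3.38) and Dlat (1.66 and 1.41) were no longer called, nor was Oxct1 without fresh replicate 4 (-1.13).

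**Figure D5:**
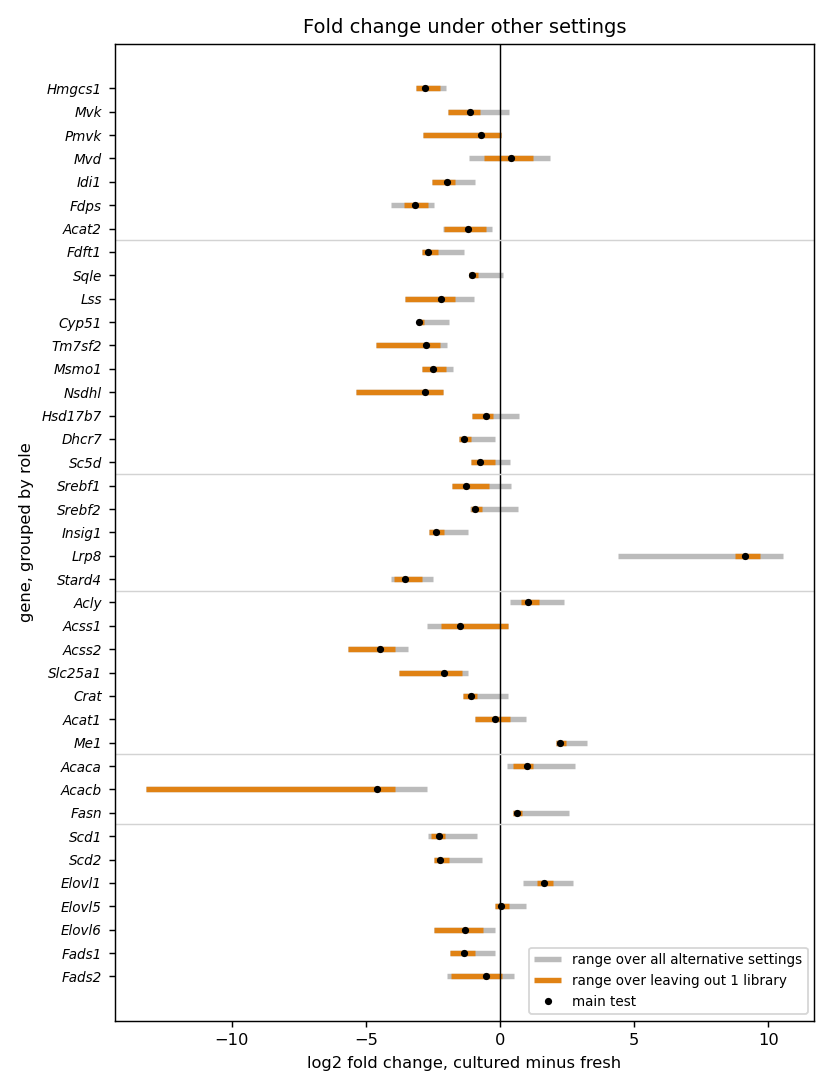
Log2 fold change of each gene in the main test (points), its range over leaving out 1 library (orange) and its range over all 18 alternatives (grey). Apart from Sqle and Srebf2, the ranges of the 12 genes that fell stay below 0, and that of Lrp8 stays above it.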

How the data were processed

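RNA-seq of 5 fresh and 3 cultured libraries was used. The authors deposited expected counts per gene, made with STAR and RSEM on mm10 per the submitters' processing notes. Versions: not given in the sources used here. RNA was amplified as cDNA before library construction, per the labels' protocols. Of the values above 0, 50.1% were not whole, and all were rounded. Of 45798 lines, 92 spike-in lines were dropped. RSEM shares reads among similar genes, so close copies are uncertain. Genes were kept by filterByExpr (19054 left) and scaled by TMM (factors 0.790 to 1.18). The test was edgeR 4.0.16 quasi-likelihood in R 4.3.3 with run and culture as terms, 5 residual degrees of freedom, and Benjamini-Hochberg adjustment over all genes at 0.05. It was also run on simulated counts with a fixed dispersion and no run effect. Those settings differ from these libraries, so no conclusion is drawn from that run. DESeq2 1.42.0 was an alternative. Standard errors are the fold change over the root of the test statistic. Coordinates and transcript lengths are from GENCODE M21, and promoter windows from RefSeq. The smallest chi-square per degree of freedom between 2 libraries was 44.5, so none counted as a duplicate. The genes and lists were chosen with earlier results of these data known. Values in every library are given for up to 5 called genes a role with a mean of at least 10 CPM, a fixed set of 16 and some others; up to 4 called genes of each further list are named, and some genes of those lists are not reported here. Alternatives were no run term, run 2 alone, run-1 fresh libraries only, a replicate block, other or no scaling, no filter, DESeq2, leaving out each library, and removing GC and length trends, the last also with the TMM level kept, which was added after the data were seen.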

Additional observations from a re-analysis of the deposited data

Results flagged for a closer look

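Of the 39 genes, 3 had a fresh library that stood apart within the fresh group by Dixon's criterion, the gap to the nearest library over the whole range. Chance alone exceeds the limit in about 1 group in 20. Fdps was at 38.8 CPM in fresh replicate 1 against 17.3 CPM in the next library. Hsd17b7 was at 74.2 CPM in fresh replicate 1, with the next at 56.5 CPM. Sc5d was at 37.1 CPM in fresh replicate 5, with the next at 20.7 CPM.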

How the results depend on the processing

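The 13 called genes had 234 values under 18 alternatives, of which 189 kept the call and 43 lost it. Of 468 values of the 26 uncalled genes, 431 stayed uncalled and 37 gained a call. In DESeq2, Lss, Tm7sf2, Dhcr7, Stard4, Crat and Fads1 gained a call as lower, and Me1 and Elovl1 as higher. Sqle (0.10) and Srebf2 (0.68) changed sign and lost the call with GC and length trends removed; 11 uncalled genes changed sign 26 times. That correction moved the median gene by 0.99 on the log2 scale, and leaving out scaling factors by 0.41. With the trends removed but the TMM level kept, Sqle was called lower (-0.99) and Srebf2 was not called (-0.38). Relative to the median of all genes, the median of the 39 lay lower under every alternative, by -0.67 to -1.39. Of all calls, 33.0% were higher in the main test, 46.2% without scaling factors, 43.6% with the replicate block and 62.2% with GC and length trends removed. Against 12 lower of the 39, 7 were lower with run 2 alone, 4 with GC and length trends removed (11 with the TMM level kept) and 6 to 15 without 1 library. The number lower was 18 in DESeq2, 16 with no run term and 8 without scaling factors. Against 1 higher, 2 were higher with no run term, 2 against run-1 fresh libraries, 5 without scaling factors, 3 in DESeq2, 6 with GC and length trends removed, 4 with the TMM level kept, and 1 to 2 without 1 library. All genes higher numbered 1013 with run 2 alone, 4107 with GC and length trends removed and 896 to 2198 without 1 library, and lower 1767 with run 2 alone. Between fresh runs, 0 of the 39 differed with GC and length trends removed, also with the TMM level kept (0), and 0 to 1 without 1 library. The causes were not tested.

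With the replicate block, 7 of the 39 were lower and 1 higher, and 1401 and 1081 of all genes. It sets cultured libraries against run-1 fresh ones, and the labels do not say whether the numbers pair. Deviations of same-numbered libraries correlated at 0.03, 0.01 and 0.01, and those of differently numbered ones at -0.018 to 0.010. With 3 libraries on each side these values cannot decide whether the libraries were paired. Depth is thin, at 1 to 10 counts, for Fdps, Acat2, Tm7sf2, Acss2 and Elovl6 in cultured replicate 1, Tm7sf2 in cultured replicate 2 and Lrp8 in both run-2 fresh libraries.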
